A study of Mus musculus with 8 samples.

Results

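The genes described here encode dioxygenases, enzymes that hold an iron atom in the active site and use oxygen and 2-oxoglutarate to add a hydroxyl group to their substrate. Acting on a methyl group, this step can lead to loss of the methyl. Many of these enzymes thus take part in removing methyl marks from DNA, histones or RNA, whereas others hydroxylate proteins or lipids. In T cells the members best known are Tet2, which oxidises methylated cytosine in DNA, and Kdm6b, which removes the Polycomb mark from histone H3. The list of 41 genes was given by name, and all 41 were found by symbol in the deposited normalised table of 13751 genes. They were sorted by enzyme type into 3 TET genes, 13 JmjC histone demethylases, 7 other JmjC proteins (named JmjC hydroxylase in the plots), 9 AlkB genes, 5 hydroxylases of the collagen type or of the endoplasmic reticulum, and 4 others.

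Transcript levels were measured in CD4 T cells of wild-type C57BL/6 mice. The cells came from peripheral lymph nodes as naive cells and were then stimulated for 20 h through plate-bound anti-CD3 and anti-CD28, at 4 µg/mL of each antibody. Added iron, called FAC in the labels, was present in 4 cultures and absent from 4 control cultures, with 1 culture of each kind from each of mice 1 to 4. The iron dose, any vehicle in the controls and the age of the mice are not stated in the sources used here. Library totals were 25410267 to 32368377 counts with FAC and 25478716 to 37350609 counts in controls.

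All 9 listed CD4 T cell markers were expressed, summing to 2870 to 2929 CPM (counts scaled to a common library total) with FAC and 2756 to 2983 CPM in controls. The other marker lists given here were low in both groups. Myeloid markers (2 of 12 tested) summed to 4.88 to 7.16 CPM with FAC and 4.44 to 5.17 CPM in controls, with Lyz2, Siglech and Ly6g at 0 in every library. Markers of CD8 T and NK cells (4 of 9 tested) summed to 10.4 to 12.9 CPM with FAC and 11.1 to 15.8 CPM in controls, with Ncr1 and Klra4 at 0. For stromal and endothelial cells (1 of 8 tested) the sums were 8.16 to 10.6 CPM with FAC and 7.18 to 9.0 CPM in controls, with Col3a1, Pdgfra, Cdh5 and Pdpn at 0. For red cells and platelets (0 of 7 tested) they were 0 to 0.191 CPM with FAC and 0.0544 to 4.15 CPM in controls, with Pf4 and Ppbp at 0. The upper end is that of control 3, the only library with counts of the 4 listed haemoglobin genes, and without it the highest control sum was 0.211 CPM. Their part in the results was not tested, and in bulk samples fewer cells of a type and less RNA per cell cannot be told apart. The transferrin receptor gene Tfrc, a standard readout of iron supply, fell to 617, 562, 566 and 544 CPM in FAC mice 1 to 4, against 1009, 958, 1029.9 and 965 CPM in control mice 1 to 4 (log2 change -0.79, SE 0.04, edgeR adjusted p = 3.97e-07).

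At the transcript level the dioxygenase genes differed little between FAC and control cultures. Of the 41, Alkbh1 rose and Alkbh5 fell, and the other 39 did not pass edgeR's quasi-likelihood test at an adjusted p under 0.05. That is 4.88% of the members, beside 3.27% of all 13378 genes tested, so the share called is near the background. By direction it is 2.44% higher and 2.44% lower, beside 2.18% and 1.10% of all genes. With the mouse as a replicate block, Kdm2b (higher) and Kdm6b (lower) were called as well. The count is then 4 of 41 (9.76%), beside 6.87% of all genes, and by direction 2 higher (4.88%, beside 4.07%) and 2 lower (4.88%, beside 2.80%). DESeq2 called the same 4 genes, beside 5.55% of all genes. At an unadjusted p under 0.05 there were 9 members, beside 18.4% of all genes.

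The sizes were small. The median absolute log2 change was 0.07 for the members and 0.09 for all tested genes, and 35 of 41 members had an absolute log2 change under 0.2. The estimates ran from -0.25 for Kdm6b to 0.38 for Tet1. For 38 of 41 members the 95% interval of the log2 change lay wholly inside a 1.5-fold difference in either direction, which held for 72.7% of all tested genes. The exceptions, Tet1, P4htm and Asph, were the members with the fewest counts, and in them a change beyond 1.5-fold lies within the error. The width of an interval depends on the counts. Every member had at least 40 counts in each library, and the filter for tested genes was set at a count of 10. The share of members and that of all tested genes are thus not at like counts. CPM of the groups did not overlap for 7 of 41 members (17.1%, beside 11.1% of all tested genes), 5 higher with FAC (12.2%, beside 6.17%) and 2 lower (4.88%, beside 4.89%). In 14 of 41 (34.1%, beside 30.2% of all tested genes) the direction was the same in all 4 mice, 8 higher (19.5%, beside 14.7%) and 6 lower (14.6%, beside 15.4%).

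**Figure D1:**
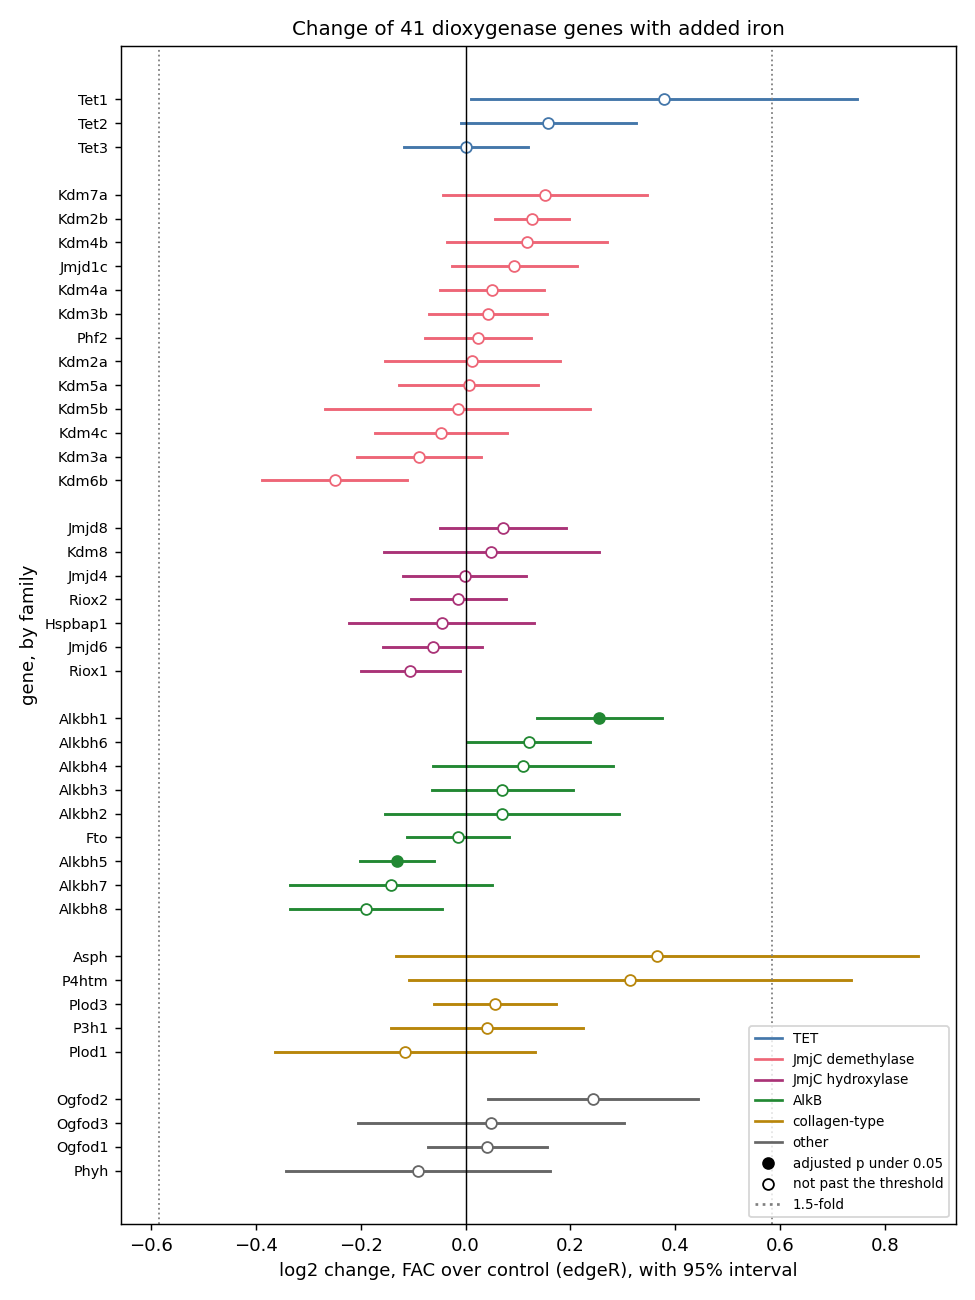
Log2 change of each gene, FAC over control, from edgeR (x axis), and genes grouped by enzyme family down the page; lines are 95% intervals, filled points passed an adjusted p of 0.05 and dotted lines mark 1.5-fold. Only Alkbh1 and Alkbh5 are filled, and the intervals of Tet1, P4htm and Asph alone cross a dotted line.

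The families were compared by their medians, as a description with no test. The median log2 change was 0.16 for the 3 TET genes, 0.02 for the JmjC demethylases and -0.01 for the other JmjC proteins (0.01 for the 20 JmjC genes together). It was 0.07 for the AlkB genes, 0.06 for the collagen-type group and 0.04 for the rest, beside -0.00 for all tested genes. Within a family the median differed between mice, with an SD of 0.03 to 0.17. For the TET genes they were 0.21, 0.31, 0.11 and -0.08 in mice 1 to 4, and for the JmjC demethylases -0.05, 0.12, 0.03 and -0.02. The other JmjC proteins gave 0.03, -0.10, 0.02 and 0.02 and the AlkB genes 0.04, -0.01, 0.01 and -0.03. The collagen-type group gave -0.09, 0.15, 0.17 and -0.05 and the remaining genes 0.15, -0.04, 0.11 and 0.04, whereas over all tested genes the medians ran from -0.01 to 0.00. No family had the same sign in all 4 mice. Control 2 was the lowest control culture for all 3 TET genes. Without a library or mouse the TET median ran from 0.10 to 0.23 and that of the JmjC demethylases from -0.01 to 0.06.

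**Figure D2:**
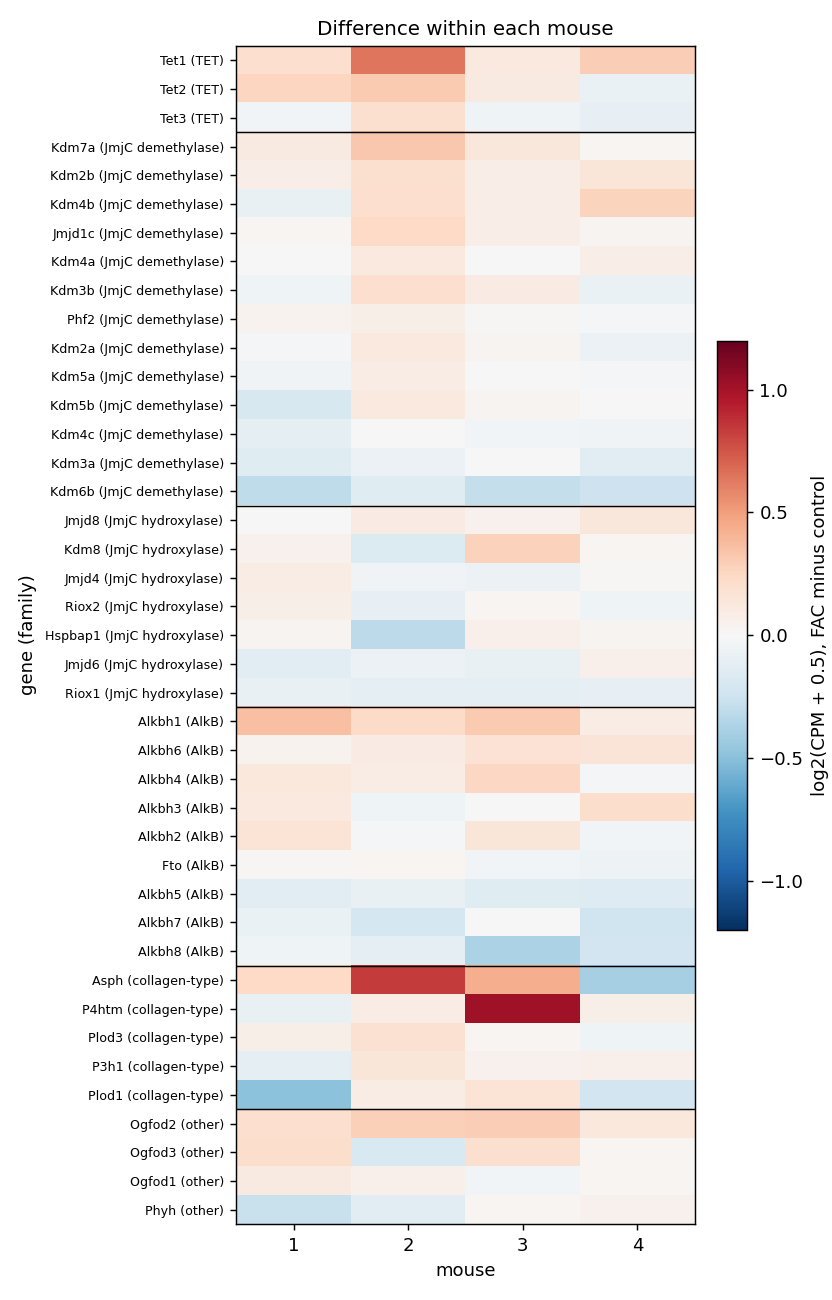
Difference within each mouse, as log2(CPM + 0.5) of the FAC culture minus that of the control culture (colour), with mice 1 to 4 across and the 41 genes down, grouped by family. Most cells are pale. In 14 of the 41 genes the sign is the same in all 4 mice. Among these are Alkbh1 (red, but pale in mouse 4), Alkbh5 (pale blue) and Kdm6b (blue). The strongest colours are those of the low-count genes Asph (0.84 in mouse 2) and P4htm (1.02 in mouse 3).

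TET enzymes oxidise the methyl group of methylated cytosine, the first step of active DNA demethylation, and none of the 3 genes passed the test (edgeR, 0 of 3; 1 at an unadjusted p under 0.05, 0 by DESeq2). Tet3 dominated the family, with 36.4 ± 1.17 TPM with FAC and 35.3 ± 4.42 TPM in controls (SD, n = 4 each), TPM being a level per unit of transcript length. Tet2 stood at 8.01 ± 1.26 TPM with FAC and 6.49 ± 1.23 TPM in controls, and Tet1 was the lowest of all 41 at 0.525 ± 0.0806 TPM with FAC and 0.565 ± 0.299 TPM in controls. Tet3 (ENSMUSG00000034832) had 244, 238, 244 and 226 CPM in FAC mice 1 to 4 and 249.8, 208, 252 and 241 CPM in control mice 1 to 4. All 4 FAC values lay inside the control range, and the log2 change was 0.00 (SE 0.06, 95% interval -0.12 to 0.12, edgeR adjusted p = 0.998). Tet2 (ENSMUSG00000040943) had 35.0, 32.0, 34.0 and 28.1 CPM in FAC mice 1 to 4 and 29.1, 25.6, 31.5 and 29.8 CPM in control mice 1 to 4. The FAC cultures of mice 1, 2 and 3 were above every control culture and that of mouse 4 was below 3 of them. The difference did not pass (log2 change 0.16, SE 0.08, edgeR adjusted p = 0.302). Tet1 (ENSMUSG00000047146) had 2.64, 2.92, 2.65 and 2.62 CPM in FAC mice 1 to 4 and 2.22, 1.69, 2.41 and 2.04 CPM in control mice 1 to 4, from 56 to 95 counts in a library. These groups did not overlap, yet the difference did not pass the test over all genes (log2 change 0.38, SE 0.17, edgeR adjusted p = 0.259). Its sign turned on a length-corrected scale, as described with the effective lengths.

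JmjC demethylases remove methyl groups from lysines of histones, each with its own preferred sites. By level the first was Kdm2b, which binds unmethylated CpG islands and brings a Polycomb complex to them, at 93.1 ± 4.66 TPM with FAC and 83.1 ± 4.55 TPM in controls. It was the most abundant of all 41 genes, and its close relative Kdm2a came next in the family at 51.2 ± 6.30 TPM with FAC and 44.3 ± 5.80 TPM in controls. Family members reached down to Kdm7a, whose enzyme acts on repressive marks of histone H3, at 4.56 ± 0.309 TPM with FAC and 3.92 ± 0.681 TPM in controls. Kdm2b (ENSMUSG00000029475) had 259.5, 271, 257 and 268 CPM in FAC mice 1 to 4, against 245, 237, 242 and 243 CPM in control mice 1 to 4. Each FAC culture was above each control culture, by a small margin. The log2 change of 0.13 (SE 0.03) missed the threshold in the group-only fit (edgeR adjusted p = 0.0561) and passed it with the replicate block (0.0322), or without the block when FAC 1 was left out (0.0491). Kdm2b shares 5.8% of its annotated exonic bases with Rnf34 on the opposite strand (24.1 CPM with FAC, 25.4 CPM in controls).

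Kdm6b (ENSMUSG00000018476), also known as JMJD3, opposes Polycomb silencing at genes switched on during differentiation. It had 133, 124, 133 and 116 CPM in FAC mice 1 to 4, against 164, 138, 162 and 139 CPM in control mice 1 to 4. All 4 FAC cultures lay below all 4 control cultures, with control mice 2 and 4 the nearest to the FAC values. The mean was 127 ± 7.97 CPM with FAC and 151 ± 14.4 CPM in controls (SD, n = 4 each). The differences within mice 1 to 4 were -0.30, -0.15, -0.29 and -0.25 on the log2(CPM + 0.5) scale. The log2 change was -0.25 (SE 0.06, 95% interval -0.39 to -0.11), with an edgeR adjusted p of 0.0531 in the group-only fit and 0.00154 with the replicate block. In the group-only fit it passed when FAC 1, control 2, control 4 or mouse 4 was left out (0.0394 to 0.0447). It missed when any other library or mouse was left out (up to 0.245). With all 8 libraries Kdm6b also passed in edgeR with DESeq2 factors (edgeR adjusted p = 0.0482) or with no filter on low counts (0.000259). It passed in DESeq2 as well (DESeq2 adjusted p = 0.00468). An antisense gene, Kdm6bos, covers 4.1% of its exonic bases and stood at 1.10 CPM with FAC and 0.708 CPM in controls.

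Of the other demethylases none was called (edgeR, 0 of 11; of the 13 in the family 2 had an unadjusted p under 0.05, Kdm2b and Kdm6b, and DESeq2 called these 2). Kdm7a had 30.6, 26.6, 30.1 and 25.6 CPM in FAC mice 1 to 4 and 28.4, 21.1, 27.3 and 25.2 CPM in control mice 1 to 4, with control 2 lowest (log2 change 0.15, SE 0.09, edgeR adjusted p = 0.403). Kdm2a had 108, 96.4, 113 and 92.4 CPM in FAC mice 1 to 4 and 109.8, 88.9, 111 and 97.1 CPM in control mice 1 to 4. In both groups mice 1 and 3 were the higher ones and the difference was 0.01 (SE 0.08). Phf2, which encodes a demethylase of the PHF family, had 121, 126, 128 and 132 CPM in FAC mice 1 to 4 and 118, 119, 127 and 134 CPM in control mice 1 to 4, a difference of 0.02 (SE 0.05). The remaining 8 lay between -0.09 for Kdm3a and 0.12 for Kdm4b. Kdm3a, Kdm3b and Jmjd1c form the group that acts on lysine 9 of histone H3 or is related to it, at -0.09, 0.04 and 0.09. Kdm4a, Kdm4b and Kdm4c, which also take trimethyl marks as substrates, were at 0.05, 0.12 and -0.05. Kdm5a and Kdm5b, which act on the lysine 4 mark of active promoters, were at 0.01 and -0.02. Kdm5b varied most between cultures within this family: it had 46.7, 42.3, 49.7 and 36.3 CPM in FAC mice 1 to 4 and 53.5, 38.8, 48.6 and 36.4 CPM in control mice 1 to 4, and mice 1 and 3 were above mice 2 and 4 in both groups.

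None of the other JmjC proteins passed the test (edgeR, 0 of 7; 1 at an unadjusted p under 0.05, 0 by DESeq2). Jmjd6, a nuclear lysyl hydroxylase that acts on splicing factors, stood at 80.2 ± 1.97 TPM with FAC and 83.1 ± 4.92 TPM in controls. The ribosomal oxygenase gene Riox2 was next at 79.4 ± 1.96 TPM with FAC and 77.9 ± 3.02 TPM in controls, and its relative Riox1 was at 43.3 ± 1.16 TPM with FAC and 45.4 ± 1.46 TPM in controls. Riox1 (ENSMUSG00000046791) had 64.4, 68.2, 66.0 and 68.5 CPM in FAC mice 1 to 4 and 68.3, 74.1, 71.5 and 73.3 CPM in control mice 1 to 4. The differences within mice 1 to 4 were -0.08, -0.12, -0.11 and -0.10 on the log2(CPM + 0.5) scale. The groups overlapped in that the FAC culture of mouse 4 was just above the control culture of mouse 1 (log2 change -0.11, SE 0.04, edgeR adjusted p = 0.223). Jmjd6 had 89.2, 88.5, 87.0 and 90.8 CPM in FAC mice 1 to 4 and 98.4, 93.3, 92.8 and 87.1 CPM in control mice 1 to 4 (difference -0.06, SE 0.04). Riox2 had 114, 105, 107 and 111 CPM in FAC mice 1 to 4 and 108, 113, 106 and 115 CPM in control mice 1 to 4. Its difference of -0.01 had a 95% interval of -0.11 to 0.08. Jmjd8, a JmjC protein of the endoplasmic reticulum, had 32.0, 30.6, 30.9 and 30.7 CPM in FAC mice 1 to 4 and 32.1, 28.6, 29.8 and 27.8 CPM in control mice 1 to 4, the highest estimate of this group (0.07, SE 0.06). That gene shares 39.3% of its annotated exonic bases with Stub1 on the opposite strand (82.0 CPM with FAC, 86.1 CPM in controls), so its counts are uncertain unless the counting used strand. Riox1 shares 31.9% with Gm26571 (0.382 CPM with FAC, 0.324 CPM in controls) and Riox2 22.4% with Crybg3 (5.82 CPM with FAC, 6.01 CPM in controls), both far lower than the members. Kdm8, Jmjd4 and Hspbap1 were at 0.05, -0.00 and -0.05.

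Most AlkB enzymes take methyl groups off nucleic acids: Alkbh2 and Alkbh3 repair alkylated DNA, Alkbh5 and Fto act on methyladenosine of messenger RNA, and Alkbh1 and Alkbh8 act on transfer RNA. The only called members of the whole set in the group-only fit were in this family, and they moved in opposite directions. Alkbh1 (ENSMUSG00000079036) rose, with 66.3, 64.8, 64.9 and 56.2 CPM in FAC mice 1 to 4, against 51.5, 55.2, 52.0 and 52.8 CPM in control mice 1 to 4. The FAC cultures of mice 1, 2 and 3 stood clear of the controls, and that of mouse 4 was only just above control 2. The means were 63.1 ± 4.61 CPM with FAC and 52.9 ± 1.63 CPM in controls (SD, n = 4 each), a log2 change of 0.26 (SE 0.06, 95% interval 0.14 to 0.38, edgeR adjusted p = 0.0260). Its call ended without FAC 2 or 3, control 1, 3 or 4, or mouse 1, 2 or 3 (edgeR adjusted p up to 0.231), in the 3 limma fits and with effective lengths as an offset. Slirp on the opposite strand shares 1.9% of its exonic bases.

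Alkbh5 (ENSMUSG00000042650) fell to 177, 177, 173 and 176 CPM in FAC mice 1 to 4, against 195, 188, 191 and 196 CPM in control mice 1 to 4. Every FAC culture was below every control culture, and this gene had the smallest spread between replicates of all 41 on the log2(CPM) scale. The means were 176 ± 1.91 CPM with FAC and 193 ± 3.49 CPM in controls (SD, n = 4 each), a log2 change of -0.13 (SE 0.03, 95% interval -0.20 to -0.06, edgeR adjusted p = 0.0462). The call rests close to the threshold: it held when FAC 1 was left out (0.0466) and ended when any other single library or any mouse was left out (up to 0.294), as it did with no filter on low counts, in the limma fits and with the length offset. Fto, the other enzyme acting on methyladenosine of messenger RNA, had a difference of -0.01 (SE 0.05, 95% interval -0.11 to 0.08, edgeR adjusted p = 0.903).

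**Figure D3:**
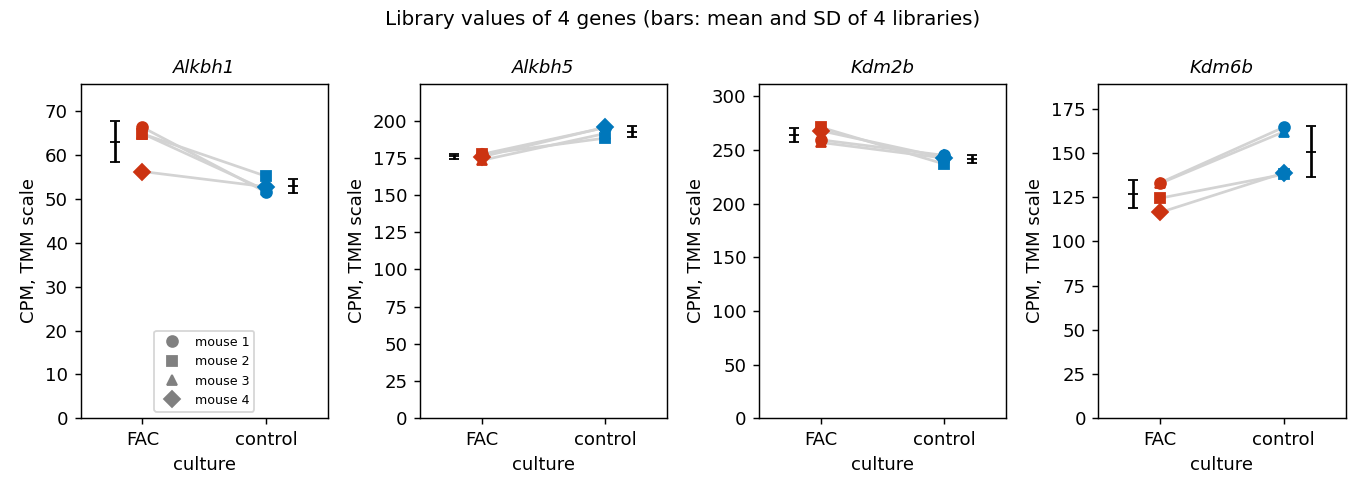
CPM of Alkbh1, Alkbh5, Kdm2b and Kdm6b in each library (points; y axes start at 0), FAC on the left and control on the right of each panel, with lines joining the 2 cultures of a mouse and bars for mean and SD of 4 libraries. In each panel the 4 FAC points lie on 1 side of the 4 control points, nearest to each other for Alkbh1 (56.2 CPM in FAC mouse 4, 55.2 CPM in control mouse 2).

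Among the remaining AlkB genes, Alkbh6 had 25.9, 27.4, 28.8 and 28.1 CPM in FAC mice 1 to 4 and 25.2, 25.6, 25.4 and 25.1 CPM in control mice 1 to 4. The groups did not overlap and the difference did not pass (log2 change 0.12, SE 0.05, edgeR adjusted p = 0.256). Alkbh8, which encodes a methyltransferase and hydroxylase of the transfer RNA wobble base, had 48.4, 42.2, 40.5 and 40.4 CPM in FAC mice 1 to 4 and 50.2, 45.5, 52.9 and 47.3 CPM in control mice 1 to 4. It was lower in 4 of 4 mice, by little in mouse 1, and did not pass (log2 change -0.19, SE 0.07, edgeR adjusted p = 0.152, and 0.0583 with the replicate block). Without FAC 1 the edgeR adjusted p for Alkbh8 was 0.0368. Alkbh2, Alkbh3, Alkbh4 and Alkbh7 lay at 0.07, 0.07, 0.11 and -0.14, with edgeR adjusted p from 0.424 to 0.776. Reads of Alkbh2 are uncertain in the same way as those of Jmjd8, since 29.5% of its exonic bases overlap Usp30 on the other strand.

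The wider set of 2-oxoglutarate dioxygenases, 24 genes not in the list of 41, of which 23 were matched, had 14 tested members, of which 2 fell and 0 rose (14.3% lower, beside 1.10% of all tested genes; the same 2 with the replicate block, beside 2.80%). The median log2 change of the 14 was -0.03. The list was chosen with earlier results of these data known, so the share of 2 in 14 is no independent comparison. Both called genes encode prolyl hydroxylases that hypoxia is known to induce, and a part of hypoxia signalling in their fall was not tested. Their relatives in the same set were not called. Egln1 and Egln2 had log2 changes of -0.04 and -0.03 (edgeR adjusted p = 0.621 and 0.807), and P4ha2 had 0.47 (SE 0.28, edgeR adjusted p = 0.407). Plod2, a lysyl hydroxylase gene of the set, was not called either (-0.31, SE 0.16, edgeR adjusted p = 0.334). It was lower with FAC in all 4 mice. P4ha1, a collagen prolyl hydroxylase subunit, fell to 58.8, 56.9, 57.9 and 59.4 CPM in FAC mice 1 to 4, against 74.8, 67.2, 65.8 and 66.3 CPM in control mice 1 to 4 (log2 change -0.23, SE 0.05, edgeR adjusted p = 0.0223). Egln3, one of the enzymes that mark HIF for degradation, fell to 4.45, 4.39, 4.37 and 5.87 CPM in FAC mice 1 to 4, against 6.38, 7.70, 7.35 and 7.74 CPM in control mice 1 to 4 (log2 change -0.62, SE 0.13, edgeR adjusted p = 0.0201). In both genes the FAC and control values did not overlap. Both calls ended without FAC 2 or 3 or mouse 1, 2 or 3, in the limma fits and with the length offset. That of P4ha1 also ended without control 1 (up to 0.174, without mouse 2), and that of Egln3 without control 2 or 3 (up to 0.212, without mouse 2). Beside the members, P4ha1 and Egln3 are named because they were called, and their relatives and Plod2 for comparison.

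Start site windows of the 4 dioxygenase genes called by the group-only fit, in either set, are printed because these genes carry the differences described. They run from 250 bases before to 50 bases after the annotated start, on the strand of the gene, from RefSeq on GRCm38.p6, a build earlier than the GRCm39 named in the submitters' processing notes. Alkbh1 is at chr12:87443790-87444089 (minus strand), Alkbh5 at chr11:60537433-60537732 (plus), P4ha1 at chr10:59323046-59323345 (plus) and Egln3 at chr12:54203825-54204124 (minus). Capitals mark the letters ACGTG or GCGTG on either strand, which are the 2 forms of the core that HIF is known to bind; on the opposite strand they read CACGT and CACGC, and ACGTG also lies within the E-box CACGTG.
Alkbh1: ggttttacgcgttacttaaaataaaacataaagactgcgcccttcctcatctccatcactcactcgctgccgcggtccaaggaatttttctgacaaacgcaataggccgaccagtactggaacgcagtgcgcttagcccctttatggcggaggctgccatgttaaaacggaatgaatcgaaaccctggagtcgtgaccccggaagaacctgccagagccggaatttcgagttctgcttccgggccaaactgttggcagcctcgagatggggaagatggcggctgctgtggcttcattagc
Alkbh5: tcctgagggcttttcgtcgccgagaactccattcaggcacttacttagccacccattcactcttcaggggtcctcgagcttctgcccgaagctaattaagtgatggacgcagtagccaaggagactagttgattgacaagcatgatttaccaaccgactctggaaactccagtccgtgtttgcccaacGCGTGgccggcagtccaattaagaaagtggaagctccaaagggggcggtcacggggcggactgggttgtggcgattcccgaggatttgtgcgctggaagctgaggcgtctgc
P4ha1: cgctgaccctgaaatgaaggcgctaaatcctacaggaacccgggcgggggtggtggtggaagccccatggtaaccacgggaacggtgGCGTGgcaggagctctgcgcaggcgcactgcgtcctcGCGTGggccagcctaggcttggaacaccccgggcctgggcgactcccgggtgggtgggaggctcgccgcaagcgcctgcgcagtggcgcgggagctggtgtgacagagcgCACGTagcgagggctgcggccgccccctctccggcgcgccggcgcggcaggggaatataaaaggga
Egln3: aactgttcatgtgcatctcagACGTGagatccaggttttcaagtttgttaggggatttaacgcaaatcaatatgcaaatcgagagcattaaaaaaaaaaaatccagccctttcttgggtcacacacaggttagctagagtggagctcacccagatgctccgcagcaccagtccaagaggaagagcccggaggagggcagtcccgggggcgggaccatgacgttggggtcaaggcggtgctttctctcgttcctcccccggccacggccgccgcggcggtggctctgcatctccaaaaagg
The Alkbh1 window holds neither form. The Alkbh5 window holds GCGTG once, the P4ha1 window holds GCGTG in 2 places and ACGTG once (as CACGT), and the Egln3 window holds ACGTG once. Of all 32851 windows of this length, 19.6% hold ACGTG and 32.4% hold GCGTG. For 34 of the 41 members the table has 44 windows, of which 12 (27.3%) hold ACGTG and 23 (52.3%) hold GCGTG. A match describes letters and says nothing of binding in these cells.

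Most of the collagen-type hydroxylases modify lysines or prolines of collagens and other proteins, Asph modifying aspartate and asparagine instead. The group had the lowest median level of the families. None passed the test (edgeR, 0 of 5; 0 at an unadjusted p under 0.05, 0 by DESeq2). Plod3, a lysyl hydroxylase gene, led with 26.3 ± 1.58 TPM with FAC and 24.6 ± 1.95 TPM in controls, and Asph, at the other end, had 1.13 ± 0.335 TPM with FAC and 1.13 ± 0.382 TPM in controls. Plod3 had 38.0, 41.8, 39.5 and 39.3 CPM in FAC mice 1 to 4 and 36.3, 36.7, 38.9 and 40.8 CPM in control mice 1 to 4, a difference of 0.06 (SE 0.05) between overlapping groups. Znhit1 on the opposite strand shares 11.7% of the exonic bases of Plod3 (25.7 CPM with FAC, 28.1 CPM in controls). Its counts are thus uncertain unless the counting used strand. P3h1, a collagen prolyl hydroxylase gene, had 12.3, 13.5, 13.0 and 14.9 CPM in FAC mice 1 to 4 and 13.3, 12.2, 12.6 and 14.2 CPM in control mice 1 to 4 (0.04, SE 0.08). Plod1, the lysyl hydroxylase paralog of Plod3, had 7.97, 10.2, 10.6 and 8.21 CPM in FAC mice 1 to 4 and 11.5, 9.60, 9.42 and 9.75 CPM in control mice 1 to 4. Its cultures of mice 1 and 4 were lower with FAC and those of mice 2 and 3 higher (-0.12, SE 0.11). Asph, which encodes an aspartyl hydroxylase and, from the same locus, shorter proteins without the catalytic domain, had 2.57, 2.73, 2.44 and 1.56 CPM in FAC mice 1 to 4 and 2.10, 1.31, 1.68 and 2.22 CPM in control mice 1 to 4. These values rest on 40 to 89 counts in a library, and the interval of the log2 change, -0.13 to 0.86, is wide. P4htm, a transmembrane prolyl hydroxylase gene, had 3.21, 3.25, 4.58 and 2.97 CPM in FAC mice 1 to 4 and 3.45, 3.02, 2.01 and 2.82 CPM in control mice 1 to 4, with the largest difference in mouse 3 (0.31, SE 0.20).

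The last 4 genes did not pass either (edgeR, 0 of 4; 1 at an unadjusted p under 0.05, 0 by DESeq2). Ogfod2 had 9.72, 11.2, 11.6 and 9.86 CPM in FAC mice 1 to 4 and 8.37, 9.08, 9.36 and 9.01 CPM in control mice 1 to 4. All FAC cultures were above all controls, and the adjusted p missed the threshold (log2 change 0.24, SE 0.09, edgeR adjusted p = 0.182). Ogfod1, which encodes a prolyl hydroxylase of a ribosomal protein, had 58.0, 52.7, 52.0 and 50.9 CPM in FAC mice 1 to 4 and 54.0, 50.5, 53.2 and 50.1 CPM in control mice 1 to 4 (0.04, SE 0.05). Ogfod3 had 6.99, 7.15, 6.99 and 7.47 CPM in FAC mice 1 to 4 and 5.99, 8.16, 6.06 and 7.36 CPM in control mice 1 to 4, with the FAC cultures inside the control range (0.05, SE 0.12). Phyh, which starts the breakdown of phytanic acid in peroxisomes, had 4.67, 5.37, 5.02 and 5.36 CPM in FAC mice 1 to 4 and 5.71, 5.93, 4.94 and 5.14 CPM in control mice 1 to 4 (-0.09, SE 0.12).

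In level per unit of length the 41 genes ranged from a mean of 0.545 TPM (Tet1) to 88.1 TPM (Kdm2b), with a median of 18.9 TPM, and 26 of 41 were above the median of all tested genes (13.5 TPM). Summed over a family, the JmjC demethylases gave 356, 353, 372 and 337 TPM in FAC mice 1 to 4 and 343, 293, 344 and 330.1 TPM in control mice 1 to 4. The AlkB genes gave 299, 293, 295 and 286 TPM in FAC mice 1 to 4 and 277, 271, 278 and 287 TPM in control mice 1 to 4. Both sums averaged higher with FAC, with overlap between the groups, on a scale where the median gene was 0.04 higher with FAC (log2). The TET genes averaged 44.9 ± 1.99 TPM with FAC and 42.3 ± 5.79 TPM in controls, and the collagen-type group 44.4 ± 1.57 TPM with FAC and 40.7 ± 2.62 TPM in controls (SD, n = 4 each). The 4 remaining genes summed to 45.7, 47.1, 46.0 and 45.5 TPM in FAC mice 1 to 4 and 42.8, 42.3, 42.8 and 41.7 TPM in control mice 1 to 4, without overlap. The order of the families by summed level was the same in both groups: JmjC demethylases, then AlkB genes, other JmjC proteins, and the 3 small families close together.

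**Figure D4:**
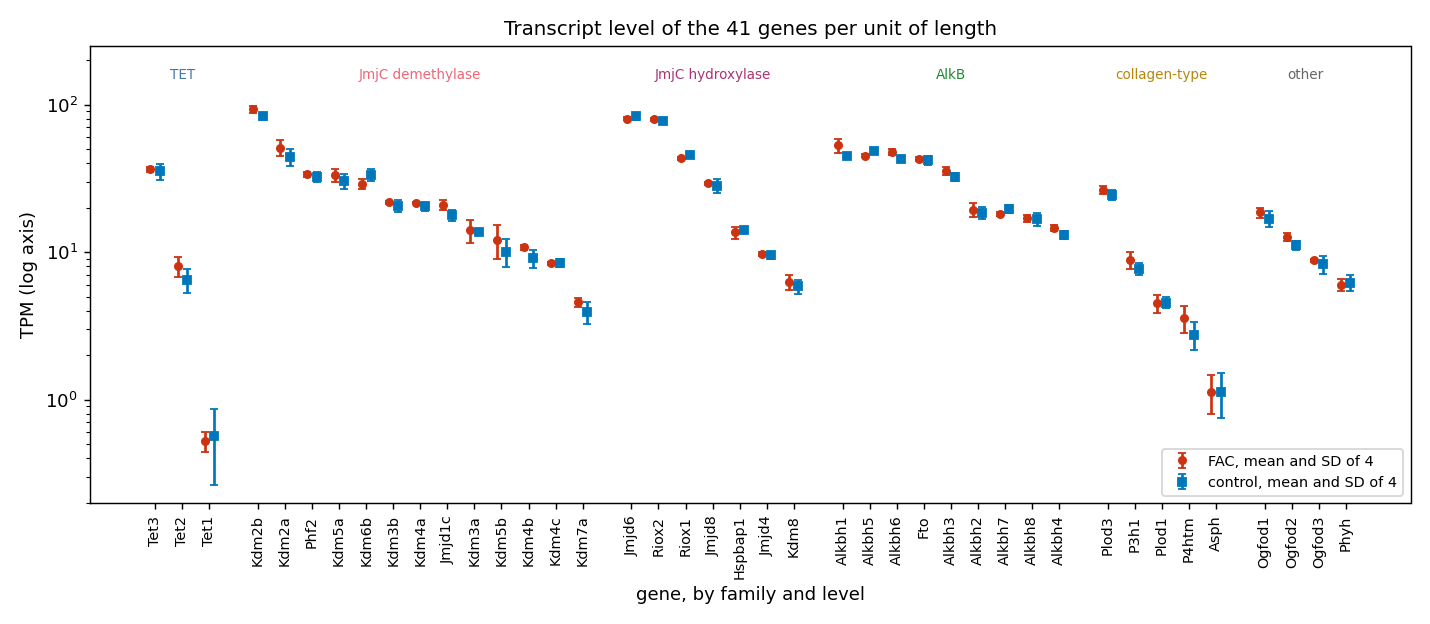
Level of each gene in TPM (log axis; mean and SD of 4 libraries), FAC as circles left of control as squares, grouped by family and ordered by level. Levels span from 0.545 TPM for Tet1 to 88.1 TPM for Kdm2b, and for most genes the FAC and control bars overlap.

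For some members the transcript length estimated by RSEM, the mean over a gene's isoforms weighted by their estimated share, differed between the groups, so that TPM and counts gave different pictures. Kdm2a had effective lengths of 2835, 2877, 2773 and 2916 bases in FAC mice 1 to 4 and 3301, 3222, 3047 and 3170 bases in control mice 1 to 4. The FAC estimates were all shorter than the control estimates. Its TPM were 53.70, 47.55, 58.80 and 44.74 in FAC mice 1 to 4 and 46.24, 37.19, 50.98 and 42.94 in control mice 1 to 4, higher with FAC in each mouse, whereas its CPM differed by 0.01. Alkbh8 was shorter with FAC too, at 3737, 3684, 3531 and 3408 bases in FAC mice 1 to 4 and 4008, 4159, 3969 and 4098 bases in control mice 1 to 4. Hspbap1 was the reverse, at 1762, 1763, 1803 and 1734 bases in FAC mice 1 to 4 and 1679, 1702, 1723 and 1727 bases in control mice 1 to 4. Of the 41 members, 2 (4.88%) were shorter without overlap of the groups, beside 1.93% of all tested genes, and 1 (2.44%) was longer, beside 1.38%. These lengths are estimates from the reads of isoforms and no test was made of them.

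**Figure D5:**
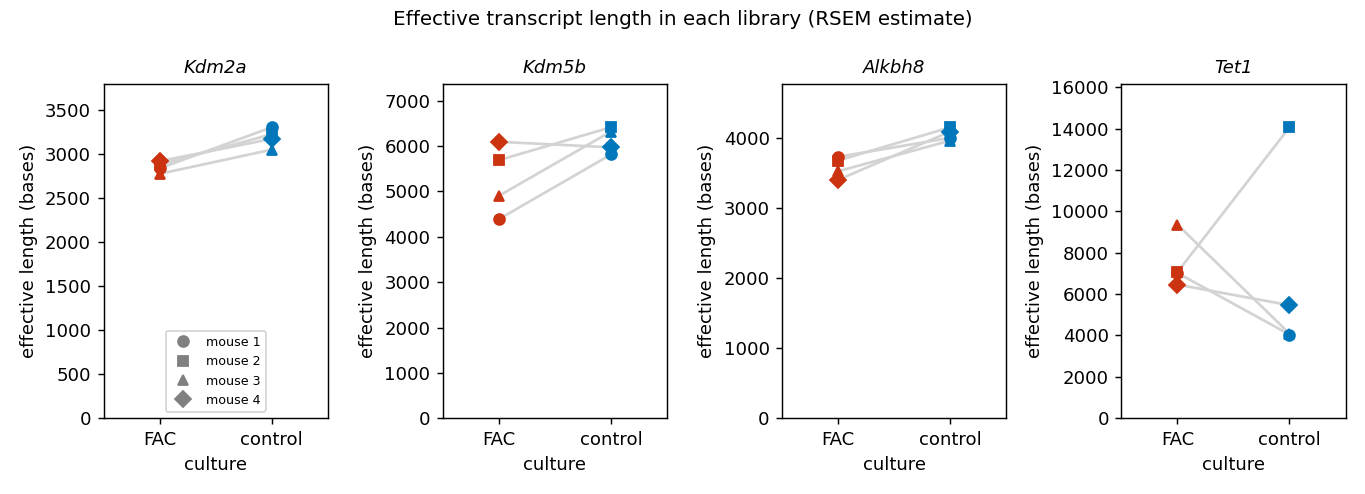
RSEM effective length in bases of Kdm2a, Kdm5b, Alkbh8 and Tet1 in each library (points; y axes start at 0), FAC left and control right in each panel, with lines joining the cultures of a mouse. Kdm2a and Alkbh8 are shorter in every FAC culture than in any control culture, Kdm5b is shorter with FAC in 3 of 4 mice, and Tet1 is scattered, with 14061 bases in control mouse 2.

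Kdm5b, picked out after its values were seen, had effective lengths of 4391, 5691, 4906 and 6095 bases in FAC mice 1 to 4 and 5816, 6416, 6322 and 5974 bases in control mice 1 to 4, and its log2 change was -0.02 on counts but 0.23 in limma on log2(TPM + 1). Tet1 had estimates of 7019, 7065, 9354 and 6458 bases in FAC mice 1 to 4 and 4043, 14061, 4091 and 5462 bases in control mice 1 to 4. At 56 to 95 counts in a library these estimates were scattered, and the Tet1 change of 0.38 on counts became -0.08 with the lengths as an offset. In 7 of 41 members (Tet1, Kdm3a, Kdm5b, Riox2, Jmjd4, Alkbh8 and Fto) the change in mean TPM had the opposite sign to the change in counts. None of the 7 was called on either scale.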

How the data were processed

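Per the file headers, the authors deposited RSEM gene results for each of 8 libraries. The deposited expected counts are estimated reads per gene, not scaled between libraries. The deposited TPM values, and FPKM values not used here, are scaled by the authors' RSEM run for transcript length and library size. The normalised signal in a deposited table of 13751 genes was scaled by the authors; how is not stated. STAR 2.7.6a, RSEM 1.3.1, DESeq2 1.26.0, R 3.6.3 and GRCm39 are named in the submitters' processing notes. Per the labels' protocols, 250 ng of RNA entered a stranded kit; the strand setting of the counting is unstated.

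Expected counts were rounded and tested with edgeR 4.0.16 (R 4.3.3; quasi-likelihood, TMM factors, group only) after filtering low counts with filterByExpr (count 10, total 15). The 13378 genes left hold 99.9% of counts. Calls were made at a Benjamini-Hochberg adjusted p under 0.05 over these genes. CPM are on the TMM scale, 1 count being 0.0272 to 0.0396 CPM, a limit from counting alone. SE is the log2 change over the square root of F, and 95% intervals use the fit's degrees of freedom. Alternatives were other factors, DESeq2 1.42.0, no filter, limma 3.58.1 on TPM or the deposited signal, a length offset, the mouse as block, and left-out libraries or mice. The test was checked on simulated data.

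The pairing rests on the mouse numbers in the labels. Deviations from group means correlated at 0.0568 (mouse 2) to 0.205 within a mouse and at -0.238 to 0.0479 between mice (across genes, which are not independent). Subtracting group means pushes the between-mouse values down, so this contrast is no proof of the pairing. Replicates differed by more than sampling noise (chi-square per degree of freedom 5.20 to 16.6). Separate cultures of 4 mice are the replicates. Symbols came from the deposited table and otherwise GENCODE M21, which also gave exon overlaps. The members and lists were chosen with earlier results of these data known. Genes given in every library were those called with or without the block, the 3 highest in TPM and the largest rise and fall of each family; Kdm5b, P4htm and Hspbap1 were added after their values were seen. From other lists, called genes and Tfrc are named, and Rbm15b, Idh1, Egln1, Egln2, P4ha2 and Plod2 were added after their values were seen. One marker list is not reported here.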

Additional observations from a re-analysis of the deposited data

Results flagged for a closer look

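In 82 groups of 4 libraries (each of the 41 genes in each group) a library standing apart from the other 3 was looked for with Dixon's ratio, which chance exceeds in about 1 of 20 groups, and 3 were found. Alkbh1 in FAC mouse 4 was at 56.2 CPM, below the other FAC cultures (66.3, 64.8, 64.9 and 56.2 CPM in mice 1 to 4). Without that library its log2 change was 0.30 (edgeR adjusted p = 0.00290). Tet1 in FAC mouse 2 was at 2.92 CPM, above the other FAC cultures (2.64, 2.92, 2.65 and 2.62 CPM in mice 1 to 4). Plod1 in control mouse 1 was at 11.5 CPM, above the other controls (11.5, 9.60, 9.42 and 9.75 CPM in mice 1 to 4).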

How the results depend on the processing

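The count of changed genes, 438, was 744 with DESeq2, 736 with no filter on low counts, 919 with the replicate block, 187 with effective lengths as an offset, and 144, 138 and 156 in limma on log2(TPM + 1), log2(TPM + 0.1) and log2(deposited signal + 1). Leaving out a library or a mouse gave 83 to 549. Of members, DESeq2 and the replicate block each called 4 (2 higher, 2 lower, the same genes). The block changed no other call among members, and DESeq2 factors in edgeR called 2 lower. With no filter on low counts edgeR called 2 members, Kdm6b and Alkbh1. The 3 limma fits and the length offset called 0 higher and 0 lower (6, 6, 7 and 7 members at an unadjusted p under 0.05). Fits without a library or mouse called 0 to 5 members (0 to 2 higher, 0 to 3 lower; 5 to 9 at an unadjusted p under 0.05). For Alkbh1, Alkbh5, Kdm2b and Kdm6b the direction held in all 20 alternatives.

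Some family medians moved by more than their spread between mice. On log2(TPM + 1) and log2(TPM + 0.1) that of the JmjC demethylases was 0.1259 and 0.1295 and that of all JmjC genes 0.0698 and 0.0726, and that of all members was 0.0823 with the smaller pseudocount. The AlkB median was 0.0289 on the deposited signal, 0.0358 with the length offset, and -0.0038 to 0.1014 without a library or mouse.

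Some log2 changes turned sign. On log2(TPM + 1) and log2(TPM + 0.1) they became 0.0272 and 0.0281 for Kdm3a, 0.2333 and 0.2516 for Kdm5b, 0.0276 and 0.028 for Riox2, 0.0314 and 0.0344 for Jmjd4, 0.0196 and 0.0208 for Alkbh8 and 0.0258 and 0.0264 for Fto. On the deposited signal and with the length offset they were 0.2061 and 0.2298 for Kdm5b and -0.0398 and -0.0149 for Asph. Tet1 was -0.0172 on log2(TPM + 1) and -0.0829 with the offset. With DESeq2 factors, DESeq2 and no filter, Tet3 was -0.001, -0.0056 and -0.0112, and with DESeq2 and no filter Kdm5a was -0.0005 and -0.0061. Without a library or mouse the changes ran from -0.0038 to 0.1136 for Alkbh2, -0.0399 to 0.0201 for Fto, -0.099 to 0.0454 for Hspbap1, -0.0326 to 0.0242 for Jmjd4, -0.0471 to 0.0585 for Kdm2a, -0.0101 to 0.0793 for Kdm3b, -0.049 to 0.0459 for Kdm5a, -0.0984 to 0.0849 for Kdm5b, -0.0378 to 0.1285 for Kdm8, -0.0014 to 0.0647 for Ogfod1, -0.015 to 0.1438 for Ogfod3, -0.0111 to 0.0901 for P3h1, -0.0029 to 0.0595 for Phf2, -0.2189 to 0.017 for Plod1, -0.0445 to 0.0157 for Riox2 and -0.0598 to 0.0271 for Tet3. The causes were not tested.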

Other observations

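Genes that write the marks these enzymes act on were followed as well. The DNA list below also holds partner genes that do not write the mark, and the RNA list also holds readers. Of 25 histone lysine methyltransferase genes 1 rose (4.00%, beside 2.18% of all tested genes), Kmt2a, which methylates lysine 4 of histone H3. It had 278, 279, 293 and 256 CPM in FAC mice 1 to 4, against 231, 186, 246 and 237 CPM in control mice 1 to 4, with no overlap (log2 change 0.30, SE 0.07, edgeR adjusted p = 0.0399). The call ended without FAC 1, 2 or 3, control 1 or 4, or mouse 1, 2 or 3 (up to 0.145 without FAC 3), in the limma fits and with the length offset. The list had a median log2 change of 0.05, with 8 genes (32.0%, beside 18.4% of all tested genes) at an unadjusted p under 0.05. Of 7 tested genes of DNA methylation (median 0.01) and 15 of the methyladenosine mark of RNA (median -0.04) edgeR called 0, with 0 and 2 at an unadjusted p under 0.05 and 0 and 0 by DESeq2. With the replicate block 1 gene of the RNA list, Rbm15b, was lower (6.67%, beside 2.80% of all tested genes). Its log2 change on counts was -0.13 (edgeR adjusted p = 0.0371). The effective length of Rbm15b was shorter in every FAC culture than in any control culture (mean 3944 bases with FAC, 4460 bases in controls). Its mean TPM was higher with FAC (log2 change 0.083), so the direction depends on the scale. The flavin-dependent demethylases Kdm1a and Kdm1b, which need no iron, were not called (edgeR, 0 of 2; 0 at an unadjusted p under 0.05, 0 by DESeq2; median 0.02).

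Enzymes that make or use the co-substrate showed no call in the group-only fit (edgeR, 0 of 22 genes of 2-oxoglutarate and succinate metabolism; 2 at an unadjusted p under 0.05, 1 by DESeq2; median -0.03). With the replicate block 1 of the 22 was higher, beside 4.07% of all tested genes. This gene, Idh1, was at 1.65 ± 0.257 CPM with FAC and 0.824 ± 0.357 CPM in controls (SD, n = 4 each). Its log2 change was 1.01 (SE 0.30, edgeR adjusted p = 0.0910, 0.0417 with the replicate block). It had only 14 to 59 counts in a library, and the groups overlapped (1.29 CPM in FAC mouse 4, 1.32 CPM in control mouse 3). Of 9 tested genes of ascorbate transport and iron delivery, Tfrc fell (11.1%, beside 1.10% of all tested genes). Ncoa4, the receptor for the breakdown of ferritin, rose (11.1%, beside 2.18%), with a log2 change of 0.22 (SE 0.05, edgeR adjusted p = 0.0241). At an unadjusted p under 0.05 there were 5 of the 9 (55.6%, beside 18.4%), and DESeq2 called 3 of the 9, beside 5.55% of all genes. The call of Ncoa4 ended without FAC 2 or 3, control 2, 3 or 4 or mouse 2, 3 or 4 (up to 0.176), in the limma fits and with the length offset.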
